A study of Mus musculus with 6 samples.

Results

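Genes of de novo fatty acid synthesis were compared between endothelial cells from Matrigel plugs with and without a secreted microfibril protein. The 10 genes were Fasn, Acaca, Acacb, Acly, Scd1, Scd2, Elovl6, Thrsp, Me1 and Mlxipl, out of 18193 genes with a value. They were chosen by name as the enzymes and regulators of this pathway, with earlier results of these data known. The gene lists below were also chosen with those results known. Counts set beside the shares of all genes are therefore descriptions and not independent tests. A probe set was taken for a gene when the platform annotation gave that gene as its sole symbol, which yielded 25 probe sets. The value of a gene was the mean of its probe sets. The MFAP5 group was 3 samples of endothelial cells from plugs holding recombinant MFAP5 (microfibrillar-associated protein 5), and the Control group was 3 samples from plugs without it. All plugs had lain inside the peritoneum of Balb/c nude mice, and each sample was read on an Affymetrix Mouse Genome 430 2.0 array. The sources used here do not give the age of the mice, the dose of MFAP5 or the method by which endothelial cells were isolated out of the plugs. Nor do they say whether different samples are from different mice, so the p-values measure the spread between these samples, which may be technical.

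De novo lipogenesis turns surplus carbohydrate into fatty acids in the cytosol. ATP citrate lyase (Acly) cleaves citrate to acetyl-CoA, the acetyl-CoA carboxylases (Acaca, Acacb) make malonyl-CoA, and fatty acid synthase (Fasn) joins these units into palmitate with NADPH that malic enzyme (Me1) helps to supply. The elongase Elovl6 and the desaturases Scd1 and Scd2 then finish the chain. Thrsp and Mlxipl, which encodes the carbohydrate response factor ChREBP, regulate the pathway, and the tissues best known for it are liver, fat and lactating mammary gland.

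The deposited values were relative: for every probe set the median of the 6 arrays had been set to 0, so a value is a log2 signal relative to that median and says nothing of the level of the gene. The log base was taken as 2 and a higher value as more signal, neither of which the sources used here state. Centring on the median of an even number of arrays sets the middle values at equal distances on either side of 0, which is why some values below come with the same size and opposite sign. The medians of the 6 arrays lay between -0.026 and 0.049. Control replicate 1 was unlike the other 2 controls: over all probe sets it correlated at -0.03 and 0.02 with Control replicates 2 and 3, which correlated with each other at 0.69. Spike-in transcripts also differed among the Control arrays. Their mean signals were -0.04, -0.0078 and -0.0065 in MFAP5 replicates 1 to 3, and -0.32, 0.64 and 0.65 in Control replicates 1 to 3. By this measure Control replicates 2 and 3 lay further from the MFAP5 arrays than Control replicate 1 did. The 3' minus 5' signal of beta-actin, a measure of RNA integrity, was 0.14, 0.08 and 0.04 in the MFAP5 arrays and -0.0048, -0.05 and -0.03 in the Control arrays, without overlap (exact permutation test, two-sided, p = 0.1, the smallest that 3 against 3 arrays allow). For Gapdh the groups overlapped (exact permutation test, p = 0.4). Its 3' minus 5' signal was 0.09, -0.04 and 0.03 in the MFAP5 arrays and -0.16, 0.03 and -0.03 in the Control arrays. The part of these array differences in the results below was not tested.

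Of the 10 genes, 5 were lower in the MFAP5 samples at an adjusted p under 0.05 and none was higher (limma, two-sided, Benjamini-Hochberg adjustment over all 18193 genes, as for every adjusted p of a gene below). The same test called 2.79 percent of all genes lower and 0.759 percent higher. At an unadjusted p under 0.05 the counts were 7 lower and 0 higher, beside 14.4 percent of all genes lower and 5.33 percent higher. The 5 genes were Thrsp, Scd1, Fasn, Me1 and Acaca, which span the carboxylase, the synthase, a desaturase, a source of NADPH and a regulator. Acly, Scd2 and Elovl6 had overlapping groups. In 7 of the 10 genes every MFAP5 value lay below every Control value, which held for 17.8 percent of all genes. The median difference of the 10 genes was -0.83, beside -0.08 for all genes. With 1 array left out at a time, 4 of the 10 passed without MFAP5 replicate 1, 5 without MFAP5 replicate 2 and 4 each without MFAP5 replicate 3, Control replicate 2 or Control replicate 3, beside 1.62, 1.91, 2.34, 1.26 and 1.13 percent of all genes called lower. Without Control replicate 1, 6 of the 10 passed, beside 10.5 percent of all genes called lower, and the differences of the 5 called genes were then -3.71 for Thrsp, -2.42 for Scd1, -2.33 for Fasn, -1.07 for Me1 and -0.70 for Acaca. In these bulk samples, fewer cells of a kind that makes such transcripts and less of the transcript per cell cannot be told apart.

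**Figure D1:**
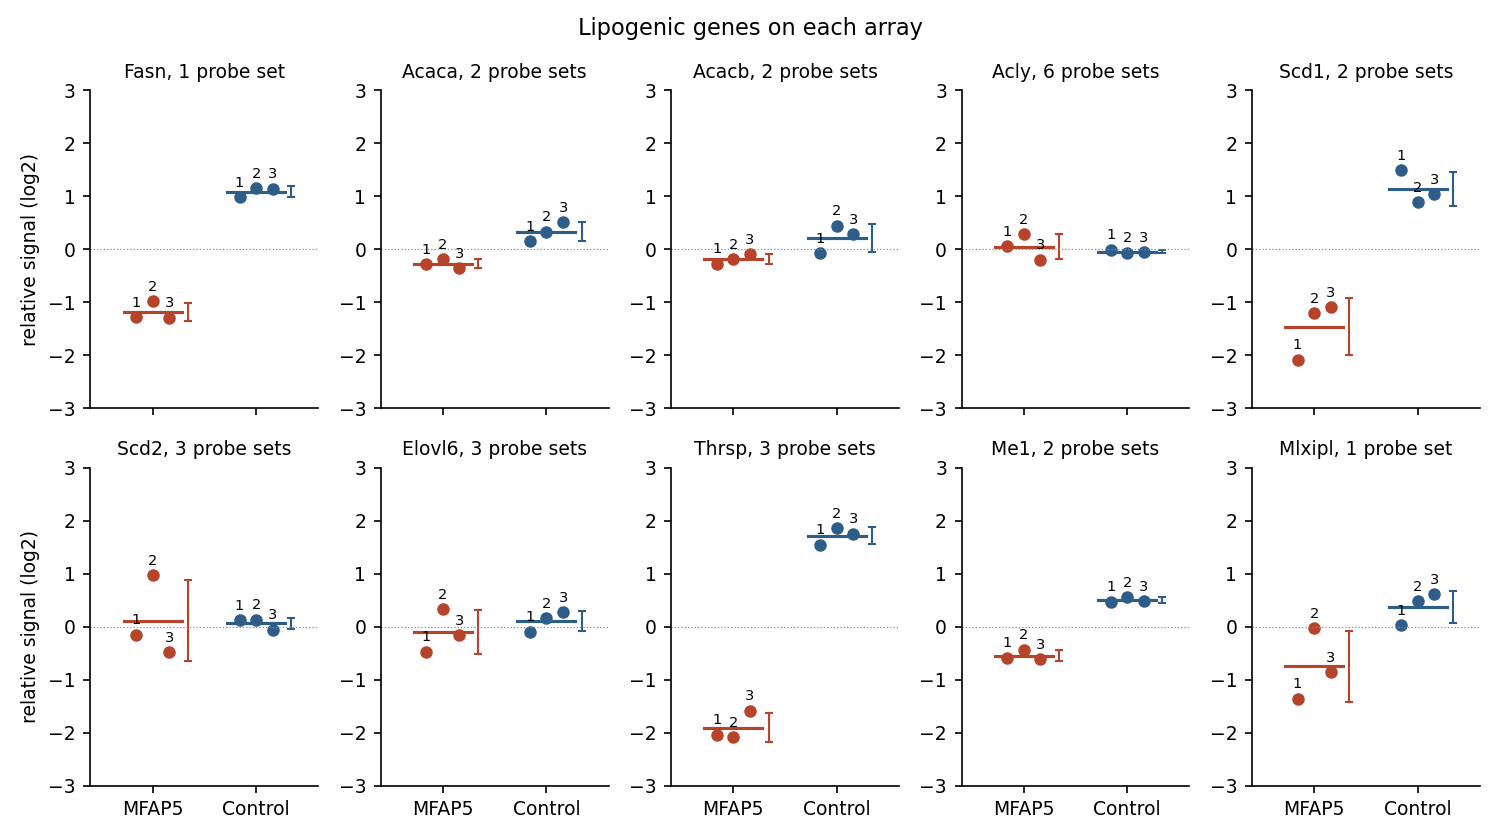
Relative log2 signal (y axis) of the 10 lipogenic genes on the 3 MFAP5 arrays and the 3 Control arrays. Each point is an array with its replicate number, lines are group means and bars beside them are ± 1 SD. Thrsp, Scd1, Fasn and Me1 have the MFAP5 arrays well below the Control arrays, while Acly, Scd2 and Elovl6 overlap.

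The first step is carried by Acly. Its mean over 6 probe sets was 0.06, 0.28 and -0.20 in MFAP5 replicates 1 to 3 and -0.01, -0.07 and -0.06 in Control replicates 1 to 3. The Control values lay within the span of the MFAP5 values. The difference was 0.09 ± 0.13 (SE, n = 3 arrays each; adjusted p = 0.715 by limma), and no probe set of Acly passed, with differences between -0.24 and 0.58. The probe set at the upper end, 1439459_x_at, belongs to a class whose probes can also bind related transcripts.

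Acetyl-CoA carboxylase, the committed step, has a cytosolic form (Acaca) and a form at the mitochondrial surface (Acacb), whose malonyl-CoA restrains the entry of fatty acids into mitochondria. Acaca stood at -0.28, -0.18 and -0.35 in the MFAP5 arrays and at 0.16, 0.33 and 0.52 in the Control arrays. All MFAP5 values were lower, and the difference was -0.61 ± 0.12 (SE, n = 3 arrays each; adjusted p = 0.0306 by limma), or 1.52-fold lower. Its probe sets disagreed: 1434185_at differed by -1.03 (limma adjusted p = 0.00989 over all probe sets, as for every probe set below) and 1427595_at by -0.19 (adjusted p = 0.526). The call for Acaca did not last when any array other than Control replicate 1 was left out, with adjusted p between 0.0587 and 0.137, nor with the spike-in signal as a covariate (adjusted p = 0.0738), where 4 of the 10 genes passed beside 1.74 percent of all genes called lower. Acacb stood at -0.27, -0.19 and -0.09 in the MFAP5 arrays and at -0.07, 0.44 and 0.29 in the Control arrays. The groups did not overlap, but Control replicate 1 lay next to the MFAP5 values and the difference of -0.40 ± 0.14 did not pass (SE, n = 3 arrays each; adjusted p = 0.170 by limma). Without Control replicate 1 it was -0.55 and passed (adjusted p = 0.0209). The probe sets of Acacb were at -0.81 and 0.0048, and neither passed. Each of them had overlapping groups, so the separation held only for their mean.

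Fasn carries out the whole series of condensation and reduction steps that build palmitate, and it had 1 probe set. Its values were -1.28, -0.98 and -1.29 in MFAP5 replicates 1 to 3 and 0.98, 1.15 and 1.14 in Control replicates 1 to 3. The arrays within a group lay close together, within 0.31 among MFAP5 and 0.17 among Control arrays, and the groups were far apart. The difference was -2.28 ± 0.12 (SE, n = 3 arrays each; adjusted p = 1.42e-04 by limma), or 4.84-fold lower, the 4th smallest p of all 18193 genes.

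Me1 makes NADPH while it converts malate to pyruvate. It stood at -0.58, -0.43 and -0.62 in the MFAP5 arrays and at 0.48, 0.56 and 0.48 in the Control arrays. Its spread within groups was narrower than that of Fasn, at 0.19 among MFAP5 and 0.09 among Control arrays. The difference was -1.05 ± 0.10 (SE, n = 3 arrays each; adjusted p = 0.00115 by limma), or 2.07-fold lower. Both of its probe sets passed, at -1.40 (adjusted p = 0.00204) and -0.70 (adjusted p = 0.0286).

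Thrsp, also known as Spot 14, is a small protein induced by thyroid hormone and carbohydrate feeding that promotes lipogenesis, and it had the smallest p of all genes. Its mean over 3 probe sets was -2.04, -2.08 and -1.59 in MFAP5 replicates 1 to 3 and 1.55, 1.86 and 1.76 in Control replicates 1 to 3. The difference was -3.62 ± 0.15 (SE, n = 3 arrays each; adjusted p = 9.93e-05 by limma), or 12.3-fold lower. The probe sets differed widely in size. With 1424737_at the values were -3.92, -3.79 and -3.09 in the MFAP5 arrays and 3.10, 3.14 and 3.09 in the Control arrays, a difference of -6.71 ± 0.21 (SE, n = 3 arrays each; adjusted p = 1.63e-05 by limma), or 105-fold lower. With 1422973_a_at the difference was -3.82 (adjusted p = 3.34e-04), or 14.1-fold lower. The third, 1444166_at, had overlapping groups and a difference of -0.35 (adjusted p = 0.339). The fold of Thrsp thus depends on the probe set read, while the difference was below 0 in all 3.

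**Figure D2:**
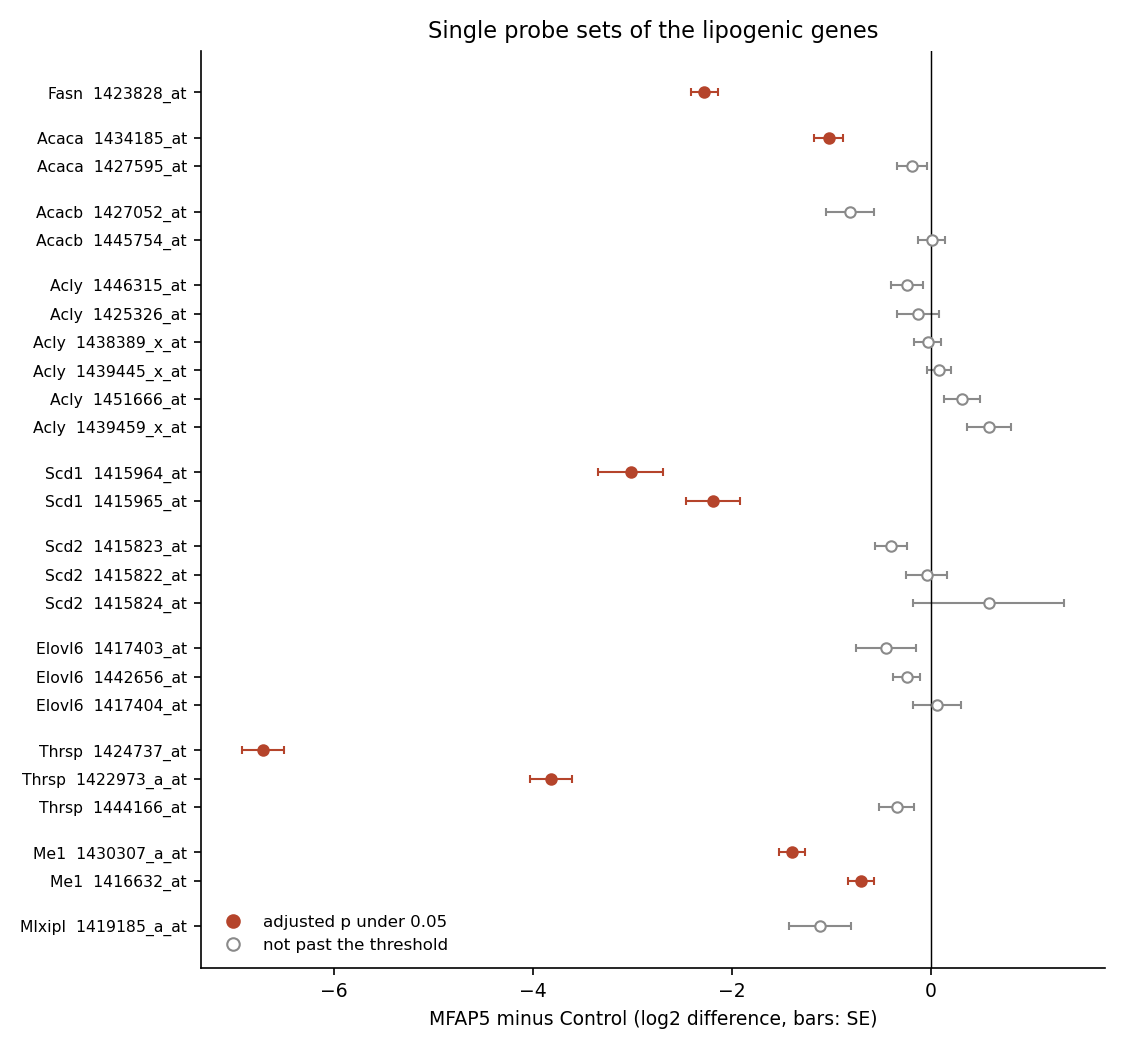
Log2 difference, MFAP5 minus Control, of each of the 25 probe sets (x axis), grouped by gene. Thrsp runs from -6.71 to -0.35 over its probe sets, both Scd1 and both Me1 probe sets lie below 0, and those of Acly, Scd2 and Elovl6 fall on either side of 0.

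Mlxipl binds carbohydrate response elements of lipogenic genes together with its partner Mlx. Its 1 probe set was at -1.35, -0.03 and -0.85 in the MFAP5 arrays and at 0.03, 0.48 and 0.61 in the Control arrays. MFAP5 replicate 2 lay beside Control replicate 1, so the groups came close without overlapping. The difference was -1.12 ± 0.31 (SE, n = 3 arrays each; adjusted p = 0.0910 by limma), and without MFAP5 replicate 2 it was -1.48 and passed (adjusted p = 0.0110).

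Elovl6 lengthens palmitate to stearate. It stood at -0.47, 0.34 and -0.15 in the MFAP5 arrays and at -0.09, 0.16 and 0.27 in the Control arrays. MFAP5 replicate 2 was the highest of all arrays, and the difference of -0.21 ± 0.20 did not pass (SE, n = 3 arrays each; adjusted p = 0.579 by limma). Leaving out 1 array moved it between -0.43, without MFAP5 replicate 2, and -0.024, without MFAP5 replicate 1. Its 3 probe sets were at -0.45, 0.06 and -0.24.

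Scd1 and Scd2 place a double bond into saturated acyl-CoA. Scd1 is the main form of liver and fat in the adult mouse, and Scd2 is prominent in brain. Scd1 stood at -2.08, -1.21 and -1.10 in MFAP5 replicates 1 to 3 and at 1.49, 0.89 and 1.04 in Control replicates 1 to 3. All MFAP5 arrays were far below the Control arrays, with MFAP5 replicate 1 the lowest. The difference was -2.60 ± 0.26 (SE, n = 3 arrays each; adjusted p = 0.00146 by limma), or 6.07-fold lower, and both probe sets passed, at -3.02 and -2.19. Scd2 stood at -0.15, 0.98 and -0.48 in the MFAP5 arrays and at 0.12, 0.13 and -0.05 in the Control arrays. The groups overlapped and the difference was 0.05 ± 0.32 (SE, n = 3 arrays each; adjusted p = 0.951 by limma). MFAP5 replicate 2 carried the high value of Scd2, and within it a single probe set, 1415824_at, which was at 2.86 there and between -0.38 and 0.39 on the other arrays. Without that array the difference of Scd2 was -0.39. Another probe set, 1415823_at, had all MFAP5 values below all Control values at a difference of -0.40 (adjusted p = 0.238).

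Over single probe sets, 8 of the 25 were lower at an adjusted p under 0.05 and none was higher, beside 1.72 percent lower and 1.56 percent higher among all 45037 probe sets tested. At an unadjusted p under 0.05 there were 11 lower and 1 higher, beside 10.7 percent and 7.99 percent of all probe sets. In 11 of the 25 the MFAP5 values all lay below the Control values, which held for 14.2 percent of all probe sets. The 8 belonged to Fasn, Acaca, Scd1, Thrsp and Me1.

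For 3 pairs of related genes the difference within each array was compared between groups by exact permutation, two-sided, where 0.1 is the smallest possible p and 0.15 the smallest after adjustment over 3 pairs when 2 of them reach it. Scd1 minus Scd2 was -1.93, -2.19 and -0.61 in the MFAP5 arrays and 1.37, 0.76 and 1.09 in the Control arrays. The groups did not overlap, at a difference of -2.65 (exact p = 0.1, adjusted p = 0.15). Thrsp minus Mid1ip1, its paralog and an activator of acetyl-CoA carboxylase, was -1.72, -1.61 and -1.56 in the MFAP5 arrays and 1.46, 1.83 and 1.71 in the Control arrays, a difference of -3.29 (exact p = 0.1, adjusted p = 0.15). Acacb minus Acaca overlapped between groups, at a difference of 0.20 (exact p = 0.3, adjusted p = 0.3). With 3 arrays against 3 this test cannot give a p below 0.05 for any of the 3 pairs. Leaving out 1 array moved the difference of Acacb minus Acaca between 0.12, without MFAP5 replicate 3, and 0.32, without Control replicate 2.

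Promoter sequence is shown for Fasn and Thrsp, the genes with the smallest p among those with a window, and for Acly, which acts in the same pathway and had overlapping groups. The windows are from RefSeq (GRCm38.p6), 250 bases before the listed start and 50 from it on, written 5′ to 3′ along the gene, and 8 of the 10 genes had at least 1 such window. Scd1 and Scd2 had no window. Capitals mark CCAAT on either strand, the letters bound by the factor NF-Y, so on the gene's own strand they read CCAAT or ATTGG. Fasn lies at chr11:120824498-120824797, Thrsp at chr7:97417501-97417800 and Acly at chr11:100527951-100528250, all on the minus strand.
Fasn: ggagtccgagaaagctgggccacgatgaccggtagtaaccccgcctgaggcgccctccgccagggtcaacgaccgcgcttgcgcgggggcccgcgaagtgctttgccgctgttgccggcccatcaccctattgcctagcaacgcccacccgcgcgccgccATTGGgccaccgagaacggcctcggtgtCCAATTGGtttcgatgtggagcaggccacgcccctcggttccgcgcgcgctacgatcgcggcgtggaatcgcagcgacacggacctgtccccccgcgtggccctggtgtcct
Thrsp: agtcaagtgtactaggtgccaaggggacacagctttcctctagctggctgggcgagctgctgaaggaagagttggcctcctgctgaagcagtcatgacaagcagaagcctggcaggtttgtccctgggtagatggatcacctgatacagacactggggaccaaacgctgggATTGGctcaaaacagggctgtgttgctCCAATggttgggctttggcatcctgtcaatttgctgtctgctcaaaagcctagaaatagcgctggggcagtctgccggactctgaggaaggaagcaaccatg
Acly: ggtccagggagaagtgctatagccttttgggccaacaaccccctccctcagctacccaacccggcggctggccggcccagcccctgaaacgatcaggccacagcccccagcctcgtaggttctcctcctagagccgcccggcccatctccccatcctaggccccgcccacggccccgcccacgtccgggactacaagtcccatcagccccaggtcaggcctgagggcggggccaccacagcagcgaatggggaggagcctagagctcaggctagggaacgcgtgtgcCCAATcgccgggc

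The Fasn window held CCAAT 3 times, beginning at positions -90, -62 and -59 from the listed start, of which the last 2 share bases on opposite strands. The Thrsp window held it at -79 and -52. The Acly window held it once, at 38, downstream of the start. CCAAT was present in 6 of the 10 windows of these genes and in 37.4 percent of all 32851 windows. Of the other letters searched on both strands, the sterol regulatory element TCACNCCAC was in 1 window, the second of Mlxipl, and in 1.24 percent of all windows. The E-box CACGTG was in 1 window, the first of Mlxipl, against 7.15 percent of all, and TATAAA in that of Acacb, against 13.6 percent of all. A pair of CANNTG boxes with 5 bases between them, the layout of a carbohydrate response element, was in none of the 10 and in 0.767 percent of all. A match of letters is a description of the window and not a site.

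The wider pathway was read from a list of 77 partner genes, of which 71 had a value. Of these, 8 were lower and none higher at an adjusted p under 0.05, with a median difference of -0.17 and the percentages of all genes called given above. At an unadjusted p under 0.05 there were 25 lower and 3 higher, beside 14.4 percent and 5.33 percent of all genes. Apart from Srebf1 and Nr1h3, the called genes had differences between -0.64 and -0.52.

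Among the transcriptional regulators 2 of 19 were called, and the median of the 19 was -0.0022. An unadjusted p under 0.05 was reached by 4 of the 19, beside 14.4 percent of all genes lower and 5.33 percent higher. Srebf1 encodes SREBP-1, the membrane-bound factor that drives lipogenic genes in response to insulin. It stood at -0.84, -0.80 and -0.45 in MFAP5 replicates 1 to 3 and at 0.45, 0.77 and 0.70 in Control replicates 1 to 3. The difference was -1.34 ± 0.14 (SE, n = 3 arrays each; adjusted p = 0.00164 by limma). Nr1h3 encodes the oxysterol receptor LXR alpha, a known activator of Srebf1. It stood at -0.67, -0.48 and -0.31 in the MFAP5 arrays and at 0.31, 0.56 and 0.43 in the Control arrays, without overlap. The difference was -0.92 ± 0.12 (SE, n = 3 arrays each; adjusted p = 0.00566 by limma). Mlx, the partner of ChREBP, was at -0.53 and did not pass (adjusted p = 0.113).

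Among genes that supply or remove citrate, acetyl-CoA and malonyl-CoA 3 of 7 were called and the median was -0.51. They were Acss2, which makes cytosolic acetyl-CoA out of acetate (-0.64, adjusted p = 0.0261), Cs, the mitochondrial citrate synthase (-0.56, adjusted p = 0.0173), and Pdha1, a subunit of pyruvate dehydrogenase (-0.52, adjusted p = 0.0475). The citrate carrier Slc25a1 was at -0.51 with an adjusted p of 0.0537. Among genes of NADPH supply 1 of 9 was called, the transaldolase Taldo1 (-0.52, adjusted p = 0.0421), and the pentose phosphate enzymes Pgls and Pgd were at -0.34 and -0.22 without passing. Mitochondria have a fatty acid synthesis of their own, and of its 4 measured genes 1 was called, the reductase subunit Cbr4 (-0.58, adjusted p = 0.0255), while Mcat was at -0.65 (adjusted p = 0.0510) and Mecr at -0.38 (adjusted p = 0.197).

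Of 17 other elongases, reductases, dehydratases and desaturases 1 was called, the dehydratase Hacd2 (-0.59, adjusted p = 0.0193). The ketoreductase Hsd17b12 was at -0.47 (adjusted p = 0.0643). Elovl5, an elongase of polyunsaturated chains, had all MFAP5 values above all Control values, as did 6.51 percent of all genes, at 0.39 (adjusted p = 0.0727). Of 10 regulators of acetyl-CoA carboxylase and of enzyme turnover none was called, and 4 had an unadjusted p under 0.05. The AMP-activated kinase subunits Prkaa2 and Prkab2 were at -0.44 (adjusted p = 0.0577) and 0.27 (adjusted p = 0.186), and Mid1ip1 was at -0.33 (adjusted p = 0.206). Of 5 genes that form fatty acyl-CoA none was called and 1, Acsl6, had an unadjusted p under 0.05, at a difference of -0.23.

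**Figure D3:**
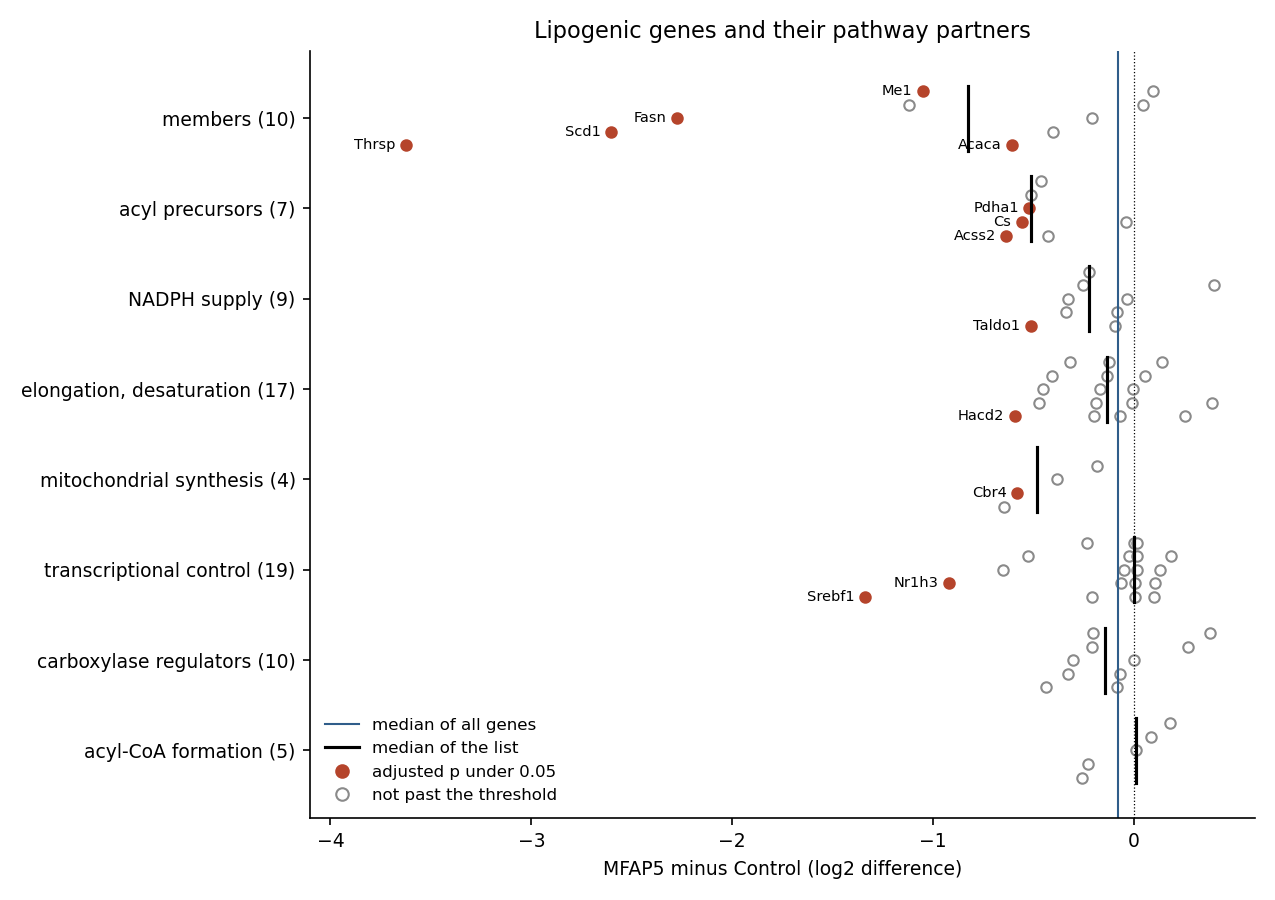
Log2 difference, MFAP5 minus Control (x axis), of the 10 lipogenic genes and of the 71 measured partners in 7 groups, with the number of genes in brackets. Each point is a gene, filled where the adjusted p was under 0.05. Black bars are list medians and the blue line is the median of all genes at -0.08. Srebf1 and Nr1h3 are the regulators filled, and the median of all 19 regulators lies near 0.

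The count of partners moved with the arrays used. Without MFAP5 replicate 1, Control replicate 2 or Control replicate 3, the list had 2 lower genes each time, Srebf1 and Nr1h3. Without Control replicate 1 it had 16 lower and 3 higher, beside 10.5 percent of all genes lower and 4.18 percent higher. The median difference of the partners was -0.11 without Control replicate 2 and also with the spike-in signal as a covariate, beside -0.05 for all genes in each case.

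Markers of fat cells were also lower in the MFAP5 samples. Of 12 adipocyte markers 10 had a value. At an adjusted p under 0.05, 7 of the 10 were lower, beside 2.79 percent of all genes. In all 10 every MFAP5 value lay below every Control value, which held for 17.8 percent of all genes. The median difference of the 10 was -2.81. Their mean was -2.99, -2.12 and -0.87 in MFAP5 replicates 1 to 3 and 0.95, 1.11 and 1.09 in Control replicates 1 to 3. The adipokine gene Adipoq was at -6.93, -3.74 and -0.97 in the MFAP5 arrays and at 1.28, 0.97 and 1.12 in the Control arrays. The span among the MFAP5 arrays differed between markers: it was 5.96 for Adipoq, 4.84 for Retn, 3.54 for Fabp4 and 3.09 for Cidec, and between 0.41 (Slc2a4) and 0.92 (Pparg) for the other 6. Among the called lipogenic genes the span there was 0.31 (Fasn), 0.19 (Me1), 0.50 (Thrsp), 0.99 (Scd1) and 0.17 (Acaca). Among the lipogenic genes not called it was 1.46 (Scd2), 1.33 (Mlxipl), 0.81 (Elovl6), 0.48 (Acly) and 0.18 (Acacb). The part of fat cells in the differences of the lipogenic genes and their partners was not tested, and since the values carry no level, whether any of these markers was near 0 cannot be read.

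For the marker counts that follow, 2.79 percent of all genes were called lower and 0.759 percent higher. At an unadjusted p under 0.05 the shares of all genes were 14.4 percent lower and 5.33 percent higher. Of the 12 endothelial markers, all with a value, none was called and 3 had an unadjusted p under 0.05. These 3 were lower in the MFAP5 samples: Tek (-0.75, adjusted p = 0.0592), Pecam1 (-0.71, adjusted p = 0.132) and Emcn (-0.31, adjusted p = 0.206). The group mean was lower in MFAP5 for 9 of the 12 and higher for 3, beside 11935 lower and 6258 higher of all genes. The mean of the 12 endothelial markers was 0.0007, -0.16 and -0.08 in the MFAP5 arrays and -0.07, 0.25 and 0.20 in the Control arrays. Of 5 measured hepatocyte markers none was called and 1 had an unadjusted p under 0.05, and their median difference was -0.21. Among 6 macrophage markers none was called and 2 had an unadjusted p under 0.05, while 3 of 5 neutrophil markers were lower, led by S100a8 at -1.63. Of 6 fibroblast markers 1 was lower (Pi16, -0.93), while the differences of the other 5 lay between 0.19 and 0.36 without passing, and the list median was 0.27. At an unadjusted p under 0.05 there were 3 fibroblast markers, Pi16, Dcn and Lum, and Dcn had all MFAP5 values above all Control values (0.36, adjusted p = 0.0853). Of 5 mesothelial markers none was called, with 1 at an unadjusted p under 0.05, and of 5 skeletal muscle markers 1 was lower (Myl1, -2.29).

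**Figure D4:**
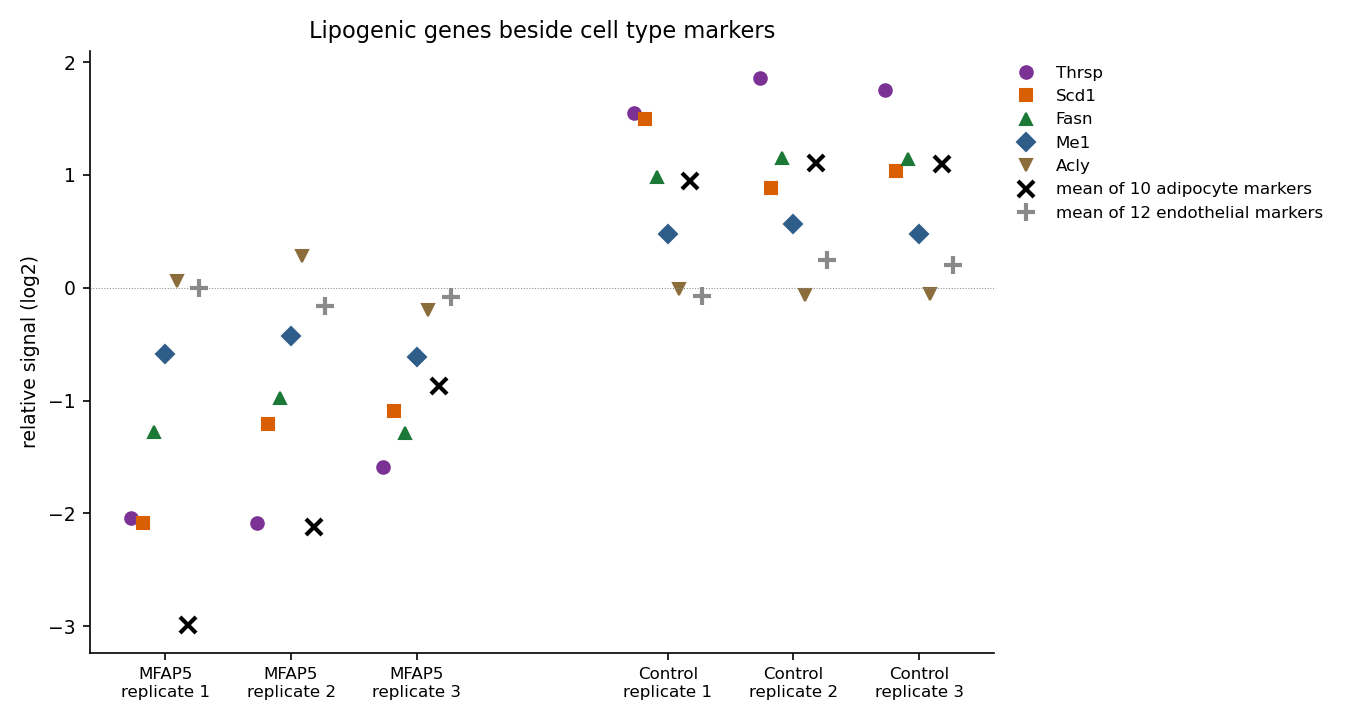
Relative log2 signal (y axis) on each array of 5 lipogenic genes, of the mean of 10 adipocyte markers and of the mean of 12 endothelial markers. The adipocyte mean differs among the MFAP5 arrays, between -2.99 and -0.87, and lies below the Control arrays on each of them.

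The genes whose 6 values were most like those of a member were found by the root mean square difference after centring each gene on its own mean over the 6 arrays. Nearest to Fasn were Ffar4, which encodes a receptor for long-chain fatty acids (0.17), the mitochondrial carbonic anhydrase Car5b (0.19) and Cyp2e1 (0.20). Nearest to Thrsp were Pcx, the pyruvate carboxylase (0.21), the lipid droplet protein gene Pnpla3 (0.22) and Apoc1 (0.27). Nearest to Scd1 were Chil1 (0.29), the glycerol phosphate dehydrogenase Gpd1 (0.29) and Car5b (0.30). Nearest to Me1 was Tmem120a (0.080), followed by Sh2b2 (0.081) and Tmem120b (0.085). The genes nearest to Acaca were Ecsit, Loxl4 and Cbr1, and those nearest to Mlxipl were Aatk, Cth and Tspan15. Emc8, Brca2 and Ifngr1 were nearest to Acacb. For the genes with overlapping groups, the nearest were Lipo2, Slc35a2 and Tnfaip1 to Acly, Plxna2, Micu2 and Slc2a1 to Scd2, and Ppp1r26, Stap2 and Mapkapk3 to Elovl6.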

How the data were processed

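Biotinylated cRNA of each endothelial sample was read on a single-channel array (6 arrays), per the labels' protocols. MAS5 is named by the submitters' processing notes, without a scaling target. The values the authors deposited were read as log2 signals: every probe set had a median of 0 to within 5e-07 and the widest spanned 8.24 units. Were the base natural, the folds would be too small. Centring left no level, so no detection call, dim filter or pseudocount was applied. Precision is limited by the number of arrays.

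Of 45101 probe sets, 64 array controls were left out. Of the 45037 tested, 34945 had 1 symbol, 932 several and 9160 were not listed; 34741 matched the RefSeq gene table (GRCm38.p6), which updated symbols. Groups were compared with limma 3.58.1 (R 4.3.3; lmFit, eBayes without a trend, Benjamini-Hochberg adjustment, threshold 0.05) over all genes or all probe sets. The fit was tested on simulated data with independent noise of equal spread on every array. That simulation did not cover an array unlike its group, as Control replicate 1 was. The members and lists were chosen with earlier results of these data known. Named were all members, every called partner with up to 3 of smallest p per partner group, and the 3 nearest patterns per member. Alternatives were other scaling, array weights, a replicate block, a variance trend, a spike-in covariate, an unmoderated statistic, a minimum log2 difference of 1, other probe set summaries, and leaving out each array.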

Additional observations from a re-analysis of the deposited data

How the results depend on the processing

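Fasn, Scd1, Thrsp and Me1 were lower under all 16 alternatives. The replicate block, the variance trend, the unmoderated statistic and the minimum difference leave the difference unchanged by construction. Other probe set summaries do so for Fasn, which had 1 probe set. Fasn, Scd1, Thrsp and Me1 passed the threshold under 15 of the 16. The exception was the unmoderated statistic, with adjusted p of 0.0556, 0.124, 0.0556 and 0.0556; it called 1 gene of the whole table, 0 of the 10 members (5 at an unadjusted p under 0.05), 0 of the 25 probe sets (8 unadjusted) and 0 partners (18 lower and 4 higher unadjusted), where limma with moderation called 5, 8 and 8. Acaca passed under 8 of 16. With the spike-in signal as a covariate it did not pass (-0.51, adjusted p = 0.0738), 4 members and 3 partners did, and 1.74 percent of all genes were called lower. Array weights called 4004 genes, among them 7 members, 24 lower and 3 higher partners and 1 higher probe set, 1439459_x_at of Acly. With a minimum log2 difference of 1, 4 members and 1 partner passed. Leaving out each array gave 4 to 6 lower members, 6 to 9 lower and 0 to 1 higher probe sets, 2 to 16 lower and 0 to 3 higher partners; the upper ends came without Control replicate 1. Scd2 changed sign under quantile normalization (-0.046), with the median of its probe sets (-0.23), without MFAP5 replicate 2 (-0.39) and without Control replicate 3 (-0.013), and Acly without MFAP5 replicate 2 (-0.022). Leaving out arrays gave -0.39 to 0.34 for Scd2 and -0.022 to 0.22 for Acly. The cause was not tested.

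The replicate number as a block gave 6 lower members (adding Mlxipl, adjusted p = 0.0266), 10 probe sets and 8 partners. Calls rose over the whole table too, to 743 genes and 1933 probe sets, beside 646 and 1478 without the block. Deviations of same-numbered samples correlated at 0.21, 0.055 and 0.085. Every sample correlated best with its own number except Control replicate 2, which correlated at 0.084 with MFAP5 replicate 3. These values do not settle whether the numbers mark pairs, and they were not taken as pairs.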

Other observations

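Pyruvate carboxylase, which makes oxaloacetate in mitochondria and so feeds the citrate that lipogenesis exports, was read by the gene Pcx and by probe sets that the array holds as controls. Pcx stood at -2.41, -2.41 and -1.33 in MFAP5 replicates 1 to 3 and at 1.33, 1.51 and 1.51 in Control replicates 1 to 3, a difference of -3.50 (limma adjusted p = 5.53e-04). The control probe sets gave -3.25 for the 3' set, -2.60 for the set MB, -0.48 for the set MA and -0.22 for the 5' set. In each of these 4 the MFAP5 values lay below the Control values (exact permutation test, two-sided, p = 0.1, the smallest possible). Pcx was on neither the list of members nor that of partners, and it was the gene nearest to Thrsp in pattern. Its difference is therefore not a result independent of Thrsp, and the control probe sets read the same gene again.

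Of 5 markers of brown fat cells 3 were lower in the MFAP5 samples, Cidea at -1.53 (limma adjusted p = 0.00113), Ucp1 at -1.29 (adjusted p = 0.0110) and Ppargc1a at -0.91 (adjusted p = 0.00247). Dio2 had all MFAP5 values above all Control values, at 0.52 (adjusted p = 0.210), and Elovl3 had them all below, at -0.46 (adjusted p = 0.136). Of all genes 2.79 percent were called lower, 6.51 percent had all MFAP5 values above and 17.8 percent had them all below.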
